A study of Mus musculus with 6 samples.

Results

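Genes that make, sense, move and export cholesterol were followed in mouse cochleae without Fabp7, a carrier of long-chain fatty acids inside cells. The list held 33 genes, given by name but chosen with earlier results of these data known. Of them, 30 had a probe on the array under that name. All 30 had a signal above the 40th percentile of the array on all 6 arrays, so none depended on 1 group for its place, and they stood among 16143 named genes and 27189 features tested. Acat2, Soat1 and Nr1h2 were matched to no probe by symbol or gene ID and were not analysed here. The brightest probe stood for each gene.

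The knockout group was Fabp7 (-/-) and the control group Fabp7 (+/+), each with 3 arrays. All mice were females aged 7 months. Each array carried total RNA of 4 cochleae pooled from 2 mice, so a group stood for 12 cochleae of 6 mice. The genotype is given for the whole animal, and the labels used here name no strain, promoter or cell type. The otic capsule was kept and vestibular tissue removed, so bone, nerve, lateral wall and sensory epithelium were measured together, and fewer cells of a type cannot be told apart from less RNA per cell. The pools are separate samples of different mice, but the spread between them is that of pooled pairs, not of single animals.

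Cholesterol is built from acetyl-CoA through mevalonate, isoprenoids and squalene, and then through a chain of sterol intermediates. The transcription factors SREBP-1 and SREBP-2, the products of Srebf1 and Srebf2, turn these enzymes on. They wait in the endoplasmic reticulum bound to the escort protein Scap, and when sterols are plentiful the retention proteins Insig1 and Insig2 hold Scap back. Insig1 is itself an SREBP target, whereas Insig2 is much less so. Oxysterols in turn activate the LXR receptors, which induce the exporters Abca1 and Abcg1 and the ubiquitin ligase Mylip, which lowers the LDL receptor. In nervous tissue much sterol goes into myelin.

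The upstream sequences of 3 members are shown because they stand for the 3 arms compared below: Insig1 for the regulators, Hmgcs1 for the enzymes and Abca1 for efflux. They are the 250 bases before the annotated start, 5′ to 3′ on the strand of the gene, from RefSeq (GRCm38.p6), and lie at chr5:28071162-28071411 (Insig1, plus strand), chr13:119690101-119690350 (Hmgcs1, plus strand) and chr4:53159896-53160145 (Abca1, minus strand). Capitals mark matches, on either strand, to the sterol regulatory element TCACNCCAC, the CCAAT box, the GC box GGGCGG and the E-box CACGTG.
Insig1: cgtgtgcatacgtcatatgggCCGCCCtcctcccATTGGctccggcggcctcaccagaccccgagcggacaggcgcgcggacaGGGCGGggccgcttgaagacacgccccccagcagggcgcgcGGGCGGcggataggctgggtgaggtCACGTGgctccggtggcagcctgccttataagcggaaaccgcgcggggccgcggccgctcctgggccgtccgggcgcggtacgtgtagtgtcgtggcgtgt
Hmgcs1: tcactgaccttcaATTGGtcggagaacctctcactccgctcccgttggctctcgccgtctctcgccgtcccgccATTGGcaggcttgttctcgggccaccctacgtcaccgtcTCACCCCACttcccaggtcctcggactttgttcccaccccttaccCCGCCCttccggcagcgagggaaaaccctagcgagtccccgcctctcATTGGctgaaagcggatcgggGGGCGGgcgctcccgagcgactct
Abca1: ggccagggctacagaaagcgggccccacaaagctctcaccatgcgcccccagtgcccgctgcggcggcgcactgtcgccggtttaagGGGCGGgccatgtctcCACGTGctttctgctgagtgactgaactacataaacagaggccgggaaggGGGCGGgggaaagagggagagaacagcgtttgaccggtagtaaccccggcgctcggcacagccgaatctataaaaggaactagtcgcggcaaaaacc

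A match to the sterol regulatory element TCACNCCAC was found in Hmgcs1 alone among the 27 listed members with an upstream sequence. It lay 137 to 129 bases before the start, and 1.05% of all 32851 windows of 250 bases held such a match. Sterol regulatory elements of other letters or further upstream were not searched, so a member without this match may still have one. The Insig1 window held 1 CCAAT box, 3 GC boxes and 1 E-box, the last 101 to 96 bases before the start. Some genes have several starts, so that the 27 members had 36 windows. A CCAAT box was present in 63.9% of the member windows and 33.8% of all windows, a GC box in 69.4% of the member windows and 32.7% of all, and an E-box in 16.7% of the member windows and 6.02% of all. The exact direct repeat of 2 AGGTCA sites 4 bases apart, a form of LXR element, was in no member window and in 0.0152% of all windows. Repeats with any other letter in a site were not searched. An LXR element of other letters would thus be unmarked, in Abca1 as elsewhere. No 2 of the marked matches overlapped in the printed sequences. These matches describe letters only, and none was tested for binding.

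Values are given as relative signal, which is the raw signal of a probe divided by the 75th percentile of its array, and differences as the log2 of that value in knockout minus wild type with the standard error of the limma fit. Levels of different genes cannot be set against each other, since each probe has its own brightness. Fabp7, the targeted gene, had relative signals of 0.018, 0.0060 and 0.0059 in knockout and of 3.95, 2.34 and 2.79 in wild type, with the groups far apart. Across all 27189 features 0 were called at a limma adjusted p under 0.05, which is 0% of them, while 1550 (5.70%) were at an unadjusted p under 0.05. The members' adjusted p-values ran from 0.534 to 1.00. Unadjusted p-values below order the genes and give counts that are set beside the same count over all features, and no difference described for a member passed the adjusted test. Markers of the cochlea were present. The hair cell calcium buffer Ocm, the fibrocyte proteins Coch and Otos and the potassium channel Kcnj10 passed the filter with 6 other cochlear markers, so that 10 of 10 were measured, the dimmest at a mean percentile of 43.7.

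Over the 30 members, the median difference was 0.01 against 0.03 for all features. Of the members, 18 lay above 0 and 12 below, but only 10 lay above the median of all features. At an unadjusted p under 0.05 there were 2, Insig1 and Pmvk, or 6.67% against the background of 5.70%, and both were higher in knockout, where the background was 3.04%. The knockout and wild-type arrays did not overlap in 5 members, 16.7% against 12.4% of all features. Knockout lay above wild type in Insig1, Pmvk and Ggps1 (8.08% of all features did so) and below it in Abca1 and Abcg1 (4.27% of all features). These shares lie near the background. Without Insig1, 1 of 29 members was at an unadjusted p under 0.05 (3.45%) and 4 had groups that did not overlap (13.8%).

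**Figure D1:**
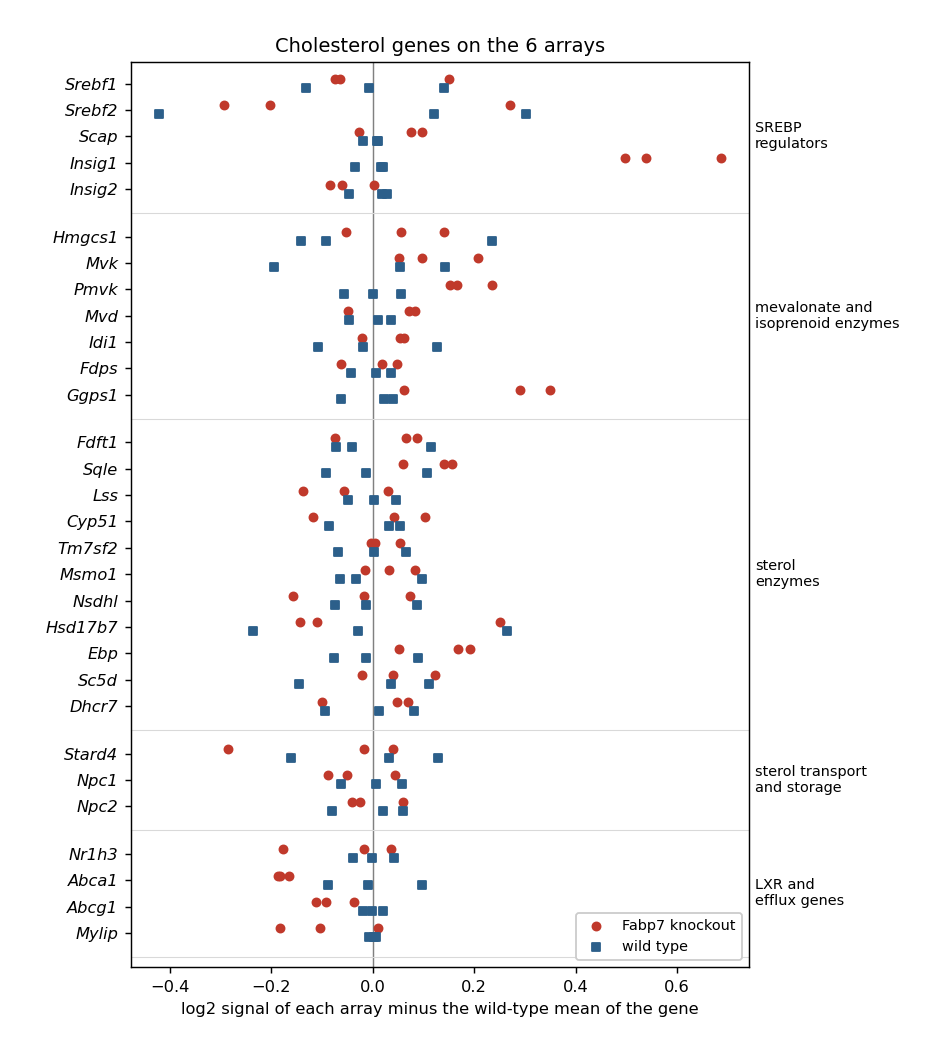
Each point is 1 array, and the horizontal axis gives its log2 signal minus the wild-type mean of the same gene, for the 30 measured cholesterol genes in rows grouped by role (circles, Fabp7 knockout; squares, wild type). The 3 knockout points of Insig1 stand apart on the right, Srebf2 has the widest spread within both groups, and Abca1 and Abcg1 have all knockout points to the left.

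Among the regulators, Insig1 differed most. Its relative signal was 1.44, 1.30 and 1.26 in knockout, against 0.908, 0.874 and 0.906 in wild type. The groups did not overlap, and the gap between the groups exceeded the spread in either. The means were 1.34 ± 0.09 in knockout and 0.896 ± 0.019 in wild type (SD, n = 3 each), a log2 difference of 0.57 ± 0.08 (SE), or 1.49-fold, with a 95% interval from 0.39 to 0.76. The limma unadjusted p was 0.000293, the 9th lowest of all features, and 3 named genes ranked before it. The limma adjusted p was 0.534, and over 16 other ways of processing the data it ranged from 0.209 to 0.994. The difference lay between 0.52 and 0.61, but several of those ways, such as no filter or trend and robust fitting, could not change it. An exact two-sided permutation test over 20 splits of the arrays cannot go below 0.1, the value reached by any gene whose groups do not overlap. A single probe measured Insig1, so no second probe bears on it.

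Insig2, the other retention protein, had relative signals of 7.38, 7.84 and 7.50 in knockout, against 7.97, 7.92 and 7.57 in wild type. The groups overlapped, with a difference of −0.05 ± 0.06 (SE) and a 95% interval from −0.21 to 0.11, and its second probe gave −0.11. That interval and the interval of Insig1 share no value, though the difference between the 2 genes was not tested. Scap, the escort protein, had relative signals of 13.6, 14.9 and 14.6 in knockout, against 14.0, 13.7 and 14.0 in wild type, and differed by 0.05 ± 0.07 (SE).

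The SREBP genes themselves, given array by array after their values had been seen, overlapped between the groups. Srebf1 had relative signals of 1.14, 1.33 and 1.15 in knockout, against 1.33, 1.20 and 1.10 in wild type, a difference of 0.0034 ± 0.11 (SE) with a 95% interval from −0.26 to 0.26. Srebf2 had 0.950, 0.892 and 1.32 in knockout, against 1.35, 1.19 and 0.817 in wild type. In Srebf2 the highest array of each group lay far from the lowest, and its difference of −0.07 ± 0.24 (SE) has a 95% interval from −0.65 to 0.50, the only member interval besides that of Insig1 to reach beyond a 1.5-fold change. Its dimmer second probe gave −0.33. The median of the 5 regulators was 0.0034, and of the 4 other than Insig1 it was −0.02.

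**Figure D2:**
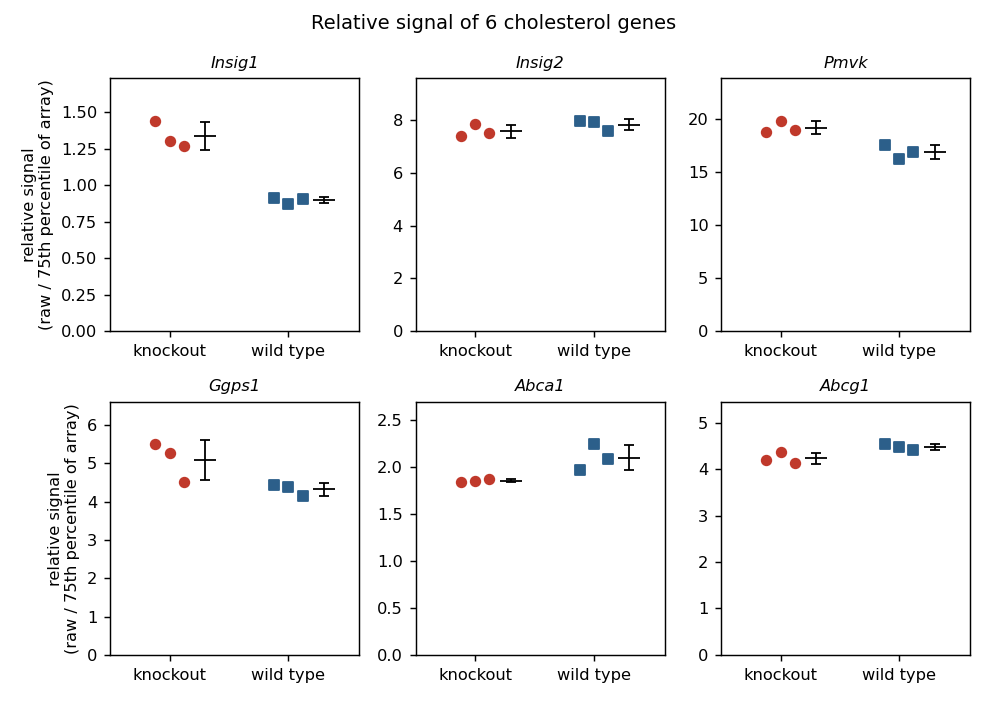
Relative signal (raw signal over the 75th percentile of the array, linear axis from 0) of 6 genes on each array, with the mean and SD of 3 arrays beside the points (circles, knockout; squares, wild type). Insig1 averages 1.34 in knockout and 0.896 in wild type, Insig2 overlaps between the groups, Pmvk and Ggps1 lie higher in knockout without overlap, and Abca1 and Abcg1 lie lower.

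The early enzymes, which lead from acetyl-CoA through mevalonate to isoprenoids, gave differences from 0.00087 (Fdps, farnesyl diphosphate synthase) to 0.23 (Ggps1) in 7 measured members, with a median of 0.05. Of the 7, 5 lay above the median of all features. Fdps was at −0.02 with quantile normalization and −0.0097 with arrays centred on the tested median, and it also lay below 0 with array weights and without knockout array 1, knockout array 3 or wild-type array 2. Pmvk, the phosphomevalonate kinase, had relative signals of 18.8, 19.9 and 19.0 in knockout, against 17.6, 16.3 and 16.9 in wild type. The lowest knockout value was higher than the highest wild-type value, with a difference of 0.18 ± 0.07 (SE), or 1.14-fold (limma unadjusted p = 0.0328, adjusted p = 0.835), and 0.16 by its second probe. Without knockout array 2 or 3, or without wild-type array 2 or 3, the unadjusted p of Pmvk lay between 0.0635 and 0.111 at differences of 0.16 to 0.19. Ggps1, which makes geranylgeranyl diphosphate for protein prenylation, had 5.50, 5.28 and 4.51 in knockout, against 4.44, 4.39 and 4.14 in wild type. Knockout array 3 came close to the wild-type arrays, and the difference was 0.23 ± 0.10 (SE) with a limma unadjusted p of 0.0508. The other Ggps1 probes gave 0.10 and 0.08.

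Hmgcs1, the HMG-CoA synthase whose upstream sequence is printed above, had relative signals of 14.5, 15.6 and 16.6 in knockout, against 17.7, 14.1 and 13.6 in wild type. Wild-type array 1 held the highest value and wild-type array 3 the lowest, so the knockout values fell inside the range of wild type (difference 0.05 ± 0.12, SE). Its other probe was above the 40th percentile on 0 of 6 arrays and was left out. Mvk, the mevalonate kinase, differed by 0.12 ± 0.11 (SE), and by 0.12 on its second probe. Mvd, the diphosphomevalonate decarboxylase, and Idi1, the isopentenyl diphosphate isomerase, differed by 0.04 ± 0.07 and 0.03 ± 0.08 (SE), and their groups overlapped.

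The later enzymes, from squalene to cholesterol, did not separate the groups in any of 11 members. Sqle, the squalene epoxidase and a control point of the late pathway, had relative signals of 6.23, 6.60 and 6.66 in knockout, against 6.44, 5.61 and 5.92 in wild type. Wild-type array 1 exceeded knockout array 1, and the difference was 0.12 ± 0.08 (SE). Ebp, the sterol isomerase with the highest signal percentile of any member, had 29.8, 29.4 and 27.1 in knockout, against 24.8, 25.9 and 27.8 in wild type. Only wild-type array 3 and knockout array 3 crossed, and the difference was 0.14 ± 0.08 (SE, limma unadjusted p = 0.130). Msmo1, the methylsterol monooxygenase, had 9.97, 10.3 and 9.65 in knockout, against 10.4, 9.33 and 9.53 in wild type, and the knockout values fell inside the range of wild type (0.03 ± 0.07, SE).

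The 8 other late enzymes included Fdft1, which makes squalene, and Lss, which closes the sterol rings. The rest were Cyp51, Tm7sf2, Nsdhl, Hsd17b7, Sc5d and Dhcr7, which modify the sterol. The differences of the 8 ran from −0.05 (Lss) to 0.05 (Sc5d). The median of the 11 late enzymes was 0.02. Hsd17b7, singled out after its values were seen for its spread, had relative signals of 0.930, 0.908 and 1.19 in knockout, against 1.21, 0.852 and 0.983 in wild type, and its 95% interval ran from −0.41 to 0.41. Cyp51 was the dimmest member, at a mean percentile of 60.8. The second probes of Fdft1, Tm7sf2 and Nsdhl gave −0.11, −0.10 and 0.29, on signals dimmer than the probes used.

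Of the 18 early and late enzymes, 15 lay above 0, and 8 lay above the median of all features. With quantile normalization, or with arrays centred on the median of tested features, 12 of 18 lay above 0. Their median difference was 0.03, equal to that of all features at this precision. The 95% interval of each of the 18 lay inside a 1.5-fold change in either direction, with the outermost bounds at −0.41 and 0.47. In Insig1 the interval reached beyond 1.5-fold at 0.76. The size seen in Insig1, 0.57, lies outside the interval of each of the 18.

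**Figure D3:**
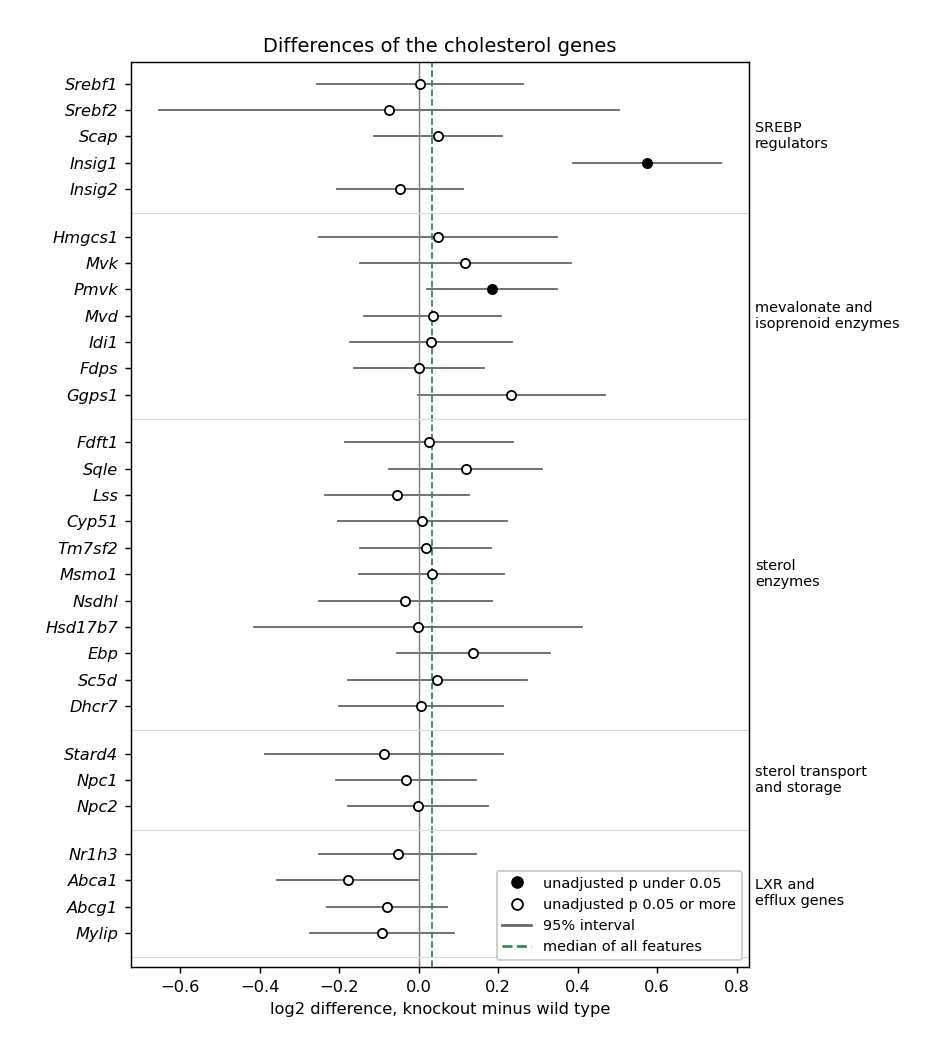
Log2 difference, knockout minus wild type, of each measured cholesterol gene (points) with its 95% interval from the limma fit (bars), filled where the unadjusted p was under 0.05. The dashed line is the median of all features, 0.03. Insig1 at 0.57 stands outside the range of −0.18 to 0.23 that holds the 29 other members.

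The enzymes varied among the arrays in a pattern that did not fully separate the genotypes. Of the 18, 15 had their highest wild-type signal on wild-type array 1, as did 41.6% of all features, and 10 had their highest knockout signal on knockout array 3, as did 30.1% of all features. The mean of their log2 signals, each centred on its gene, was 0.0022, 0.02 and 0.06 in knockout and 0.05, −0.07 and −0.07 in wild type. Thus wild-type array 1 sat among the knockout arrays, while wild-type arrays 2 and 3 lay below all of them. Wild-type array 1 also differed from the other arrays in its faint probes, where the 25th percentile of raw signal was 6.66 against 3.92 to 4.69, and its part in this pattern was not tested. Without wild-type array 1 the median of the 18 enzymes was 0.09, against 0.03 for all features. Without wild-type array 3 it was −0.01, against 0.04 for all features. Srebf2, Hsd17b7 and Stard4 had the widest spread within groups of all members (pooled SD 0.34, 0.24 and 0.16 on the log2 scale), against a median of 0.08. All 3 were highest on knockout array 3 and wild-type array 1 within their groups. Insig1 was also highest on wild-type array 1 but on knockout array 1, as were 41.1% of all features in knockout.

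The 3 measured transport genes gave small differences, and the storage gene Soat1 was not measured. Stard4, a carrier that moves cholesterol between membranes, had relative signals of 1.24, 1.03 and 1.29 in knockout, against 1.38, 1.29 and 1.12 in wild type, a difference of −0.09 ± 0.12 (SE). Npc1 and Npc2 hand sterol taken up from lipoproteins out of the lysosome. Npc1 had 1.30, 1.42 and 1.33 in knockout, against 1.44, 1.39 and 1.32 in wild type (−0.03 ± 0.07, SE). Npc2 had 14.3, 13.4 and 13.5 in knockout, against 13.0, 14.3 and 13.9 in wild type (−0.0019 ± 0.07, SE). In each of the 3 the groups overlapped.

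The LXR and efflux genes lay below 0 in 4 of 4 measured members, with a median of −0.09 against 0.03 for all features. Abca1, which loads cholesterol onto lipid-poor apolipoprotein A-I, had relative signals of 1.84, 1.84 and 1.87 in knockout, against 1.97, 2.24 and 2.08 in wild type. The knockout arrays were nearly equal and all lay below wild type. The difference was −0.18 ± 0.07 (SE), or 0.884-fold, with a limma unadjusted p of 0.0501 and an adjusted p of 0.866. Abcg1, which passes cholesterol on to HDL, had 4.19, 4.36 and 4.14 in knockout, against 4.54, 4.47 and 4.41 in wild type. Those groups did not overlap either, at a difference of −0.08 ± 0.06 (SE, limma unadjusted p = 0.239).

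Mylip, which marks the LDL receptor for degradation, had relative signals of 5.18, 5.47 and 5.92 in knockout, against 5.88, 5.90 and 5.84 in wild type. Knockout array 3 was the highest of the 6, and the difference was −0.09 ± 0.07 (SE). Its second probe, far dimmer, gave −0.60. Nr1h3, the LXR alpha receptor, had 4.74, 4.56 and 4.09 in knockout, against 4.61, 4.49 and 4.76 in wild type, a difference of −0.05 ± 0.08 (SE) that was 0.01 without knockout array 3. The second Nr1h3 probe, nearly as bright, gave −0.0071. The mean of the centred log2 signals of the 4 genes was −0.06, −0.03 and −0.06 in knockout and 0.03, 0.07 and 0.05 in wild type. No array of one group reached those of the other, in a set of 4 that gets no test of its own.

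Macrophages carry much of the LXR and efflux programme, and their markers lay on the same side of 0. Of 8 measured markers (of 9 listed, Cd163 being below the filter) 8 lay below 0, with a median of −0.09. The complement gene C1qa differed by −0.26 ± 0.08 (SE) and the chemokine receptor Cx3cr1 by −0.18 ± 0.06 (SE), both without overlap, while the growth factor receptor Csf1r was at −0.05 and the lysosomal protein Cd68 at −0.03. The summed relative signal of the 8 ranged from 80.4 to 85.7 in knockout and from 80.8 to 94.0 in wild type. Their part in the values of Abca1 and Abcg1 was not tested.

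Adipocytes express Insig1 strongly, and most of their markers lay the other way from Insig1. Of 6 measured markers (of 7 listed, Lep being below the filter) 5 were below 0. Plin1 and Cidec, which coat lipid droplets, were at −0.81 ± 0.26 and −0.73 ± 0.23 (SE), on dim probes at mean percentiles of 54.5 and 57.2. Lipe was at −0.49, Fabp4 at −0.26 with overlap and Retn at −0.0093, while Adipoq was at 0.02. The summed relative signal ranged from 8.20 to 10.002 in knockout and from 8.38 to 11.3 in wild type. Myelin markers, of which 5 of 8 were measured, had a median of −0.04 and summed signals of 53.6 to 60.4 in knockout and 52.0 to 71.6 in wild type. The bone list had a median of −0.08, with 5 of 7 below 0, and the red cell precursor list one of −0.14 over 3 measured genes. Skeletal muscle markers were dominated by knockout array 2, where Myh4 reached a relative signal of 1.84 against 0.043 and 0.060 on the other knockout arrays and 0.037 to 0.116 in wild type. Insig1 was at 0.59 without that array. Of the 10 cochlear markers, 6 lay above 0 and 4 below, with a median of 0.06. The hair cell genes Slc26a5, at 0.92 ± 0.25 (SE), and Ocm, at 0.33 ± 0.12 (SE), had groups that did not overlap, higher in knockout. Slc26a5 was at the edge of the filter, above the 40th percentile on 5 of 6 arrays. A further hair cell gene, Otof, overlapped between the groups at 0.30 ± 0.26 (SE). The extracellular matrix genes Otoa and Otog were at −0.22 ± 0.20 and −0.04 ± 0.31 (SE), and Epyc lay below wild type on all knockout arrays at −0.41 ± 0.10 (SE). Tecta, also a matrix gene, and Coch lay above 0, at 0.22 ± 0.49 and 0.11 ± 0.09 (SE). Otos was at 0.0091 ± 0.07 (SE) with overlap and Kcnj10 at −0.12 ± 0.08 (SE) without. The part of these markers in the Insig1 value was not tested.

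**Figure D4:**
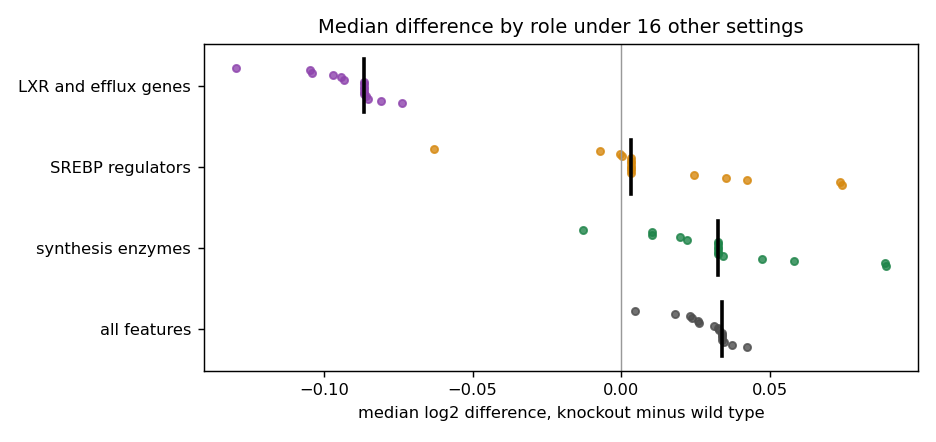
Median log2 difference, knockout minus wild type, of 3 gene groups and of all features (rows). The black bar is the reported setting and each point 1 of 16 other settings. The LXR and efflux genes stay below 0 and below all features in each, from −0.13 to −0.07, whereas the synthesis enzymes range from −0.01 to 0.09 and the SREBP regulators from −0.06 to 0.07. Other filters, dim signals raised, trend and robust fitting and the replicate block left the medians of the 3 groups as reported. Those points repeat the black bar, as nearly does the authors' log2 matrix.

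A further 44 genes of sterol and fatty acid control were read, of which 40 were measured. Of these, 2 were at an unadjusted p under 0.05, both higher in knockout, or 5% against 5.70% of all features, and 0 passed the limma adjusted test. Their median difference was 0.03, equal to that of all features.

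In SREBP processing and Insig turnover, 5 of 6 measured genes lay above 0 and 0 were at an unadjusted p under 0.05. Their median was 0.05, against 0.03 for all features. Mbtps2, the protease that makes the second cut in SREBP, had relative signals of 0.243, 0.217 and 0.187 in knockout, against 0.176, 0.187 and 0.175 in wild type. Its groups nearly touched at knockout array 3 and differed by 0.26 ± 0.11 (SE, limma unadjusted p = 0.0568). Mbtps1, which makes the first cut, differed by 0.06 ± 0.07 (SE), and Tmem97, a sterol-responsive membrane protein, by 0.20 ± 0.12 (SE) with overlap.

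Of the SREBP-1 lipogenic targets 8 of 10 lay above 0, with a median of 0.07 against 0.03 for all features. Acly, the citrate lyase that supplies acetyl-CoA for both fatty acid and sterol synthesis, had relative signals of 27.3, 28.7 and 28.2 in knockout, against 25.1, 25.7 and 24.8 in wild type. Its groups did not overlap, at 0.15 ± 0.06 (SE), or 1.11-fold (limma unadjusted p = 0.0463, adjusted p = 0.866). The acetyl-CoA synthetase Acss2 differed by 0.11 ± 0.07 and the desaturase Scd2 by 0.07 ± 0.07 (SE), both with overlap.

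Of the uptake and transport list, 8 of 12 measured genes lay above 0, with a median of 0.03, equal to that of all features at this precision. Star, which brings cholesterol into mitochondria, had relative signals of 0.069, 0.055 and 0.056 in knockout, against 0.044, 0.042 and 0.050 in wild type, all on a dim probe at the low end of the filter. It differed by 0.39 ± 0.12 (SE, limma unadjusted p = 0.0175, adjusted p = 0.792). Gramd1a, which carries sterol from the plasma membrane to the endoplasmic reticulum, differed by 0.14 ± 0.09 (SE), and the lysosomal lipase Lipa by −0.11 ± 0.08 (SE). In both the groups did not overlap.

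Among the oxysterol enzymes 4 of 5 lay below 0. Ch25h, which makes 25-hydroxycholesterol, had relative signals of 0.369, 0.491 and 0.450 in knockout, against 0.692, 0.581 and 0.452 in wild type. Knockout array 2 exceeded wild-type array 3, and the difference was −0.38 ± 0.19 (SE, limma unadjusted p = 0.0852). Cyp7b1 and Cyp39a1, oxysterol hydroxylases, were at 0.15 ± 0.11 and −0.16 ± 0.20 (SE).

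The list of other LXR targets and exporters, which also held the receptor genes Rxra and Rxrb, had 7 of 9 measured. Of these, 4 lay below 0 and 3 above, with a median of −0.06. Rxra itself was at −0.06 ± 0.12 and Rxrb at 0.05 ± 0.07 (SE). The exporters Abcg4 and Abca7 were at 0.12 ± 0.08 and 0.15 ± 0.09 (SE), on the other side of 0 from Abca1 and Abcg1. Smpdl3a, a phosphodiesterase induced by LXR, had relative signals of 16.7, 17.1 and 17.0 in knockout, against 17.6, 18.5 and 18.0 in wild type. It lay below wild type on every knockout array, at −0.09 ± 0.06 (SE).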

How the data were processed

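Total RNA labelled with Cy3 was measured on 1-colour arrays, with Agilent Feature Extraction 10.7 named per the submitters' processing notes. For every probe of an array the authors deposited an unnormalized linear intensity, per the file headers, with the signal column and background treatment not given in the sources used here. They also deposited a log2 matrix, in which each column equalled the log2 raw signal minus a constant, to within 1e-05.

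Each of 55676 probes was scaled by dividing its raw signal by the array's 75th percentile and taking log2. Probes above the 40th percentile on at least 3 of 6 arrays were kept (33484), with the brightest per gene. Genes came from the platform annotation, in which 30625 probes had a gene and 25051 had none, and unnamed probes stayed as features. The genotype difference was fitted by lmFit and eBayes (limma 3.58.1, R 4.3.3) with no covariate, adjusted by Benjamini-Hochberg over all features at 0.05, and the fit was tested on simulated data. The 75th percentile of raw signal ranged from 581.06 to 677, arrays correlated at 0.988 to 0.994, and their number limits the precision.

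Members, lists and alternatives were chosen with earlier results of these data known. Values on each array were given for members with an unadjusted p under 0.05 or groups without overlap and, per role, the 2 with the lowest p and the 2 with the highest signal percentile. Of each other pathway list up to 3 genes with the lowest p were named, besides any with an unadjusted p under 0.05. Replicate numbers did not pair the arrays: deviations of same-numbered arrays correlated at −0.133, −0.0428 and −0.141.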

Additional observations from a re-analysis of the deposited data

How the results depend on the processing

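Across the 16 alternatives run, 0 of 480 values of single members reached an adjusted p under 0.05 by limma, and 6 moved by over 1 SD. Insig1 lay at 0.52 to 0.61, with an unadjusted p of 9.59e-05 to 0.00304 and groups apart in each. Other filters, dim signals raised, trend and robust fitting and the replicate block left the members' differences as reported and changed only their p-values. The authors' log2 matrix gave nearly the same differences. Limma called 1 feature, Fabp7, with quantile normalization, with dim signals raised to the 40th percentile and with trend and robust fitting, and 3 (Fabp7, Dupd1 and Slco1b2) with array weights. It called 0 to 2 with 1 array left out: 1 without knockout array 1 (Fabp7), 2 without wild-type array 2 (a probe with no gene name and Gdpd3), and 1, again unnamed, without wild-type array 3. Members at an unadjusted p under 0.05 numbered 2 as reported (5.70% of all features), 1 without a filter (4.11% of all features), 4 with a filter on all 6 arrays (5.85%) and with trend and robust fitting (5.74%), and 5 with array weights, where the share of all features was 12.6%. They numbered 1 to 3 with 1 array left out, at 4.17% to 7.86% of all features: 1 (Insig1) without knockout array 2 or wild-type arrays 2 or 3, and 3 without wild-type array 1 (7.86%). With the replicate block the count was 1 (4.41% of all features), with Insig1 at 0.57 and an adjusted p of 0.994, and 0 of 6 arrays correlated best with the same number in the other group. The LXR and efflux median was −0.10 with quantile normalization, −0.13 with passing probes averaged per gene, and −0.104 to −0.081 with 1 array left out. The synthesis median was 0.089 with array weights and −0.013 to 0.089 with 1 array left out. The cause of these moves was not tested. Features whose groups did not overlap split 2197 higher to 1161 lower (65.4% higher), against 56.7% higher with quantile normalization and 58.3% with arrays centred on the tested median. Background correction and a block for slide or scan were not run, since the files used hold neither. Arrays of pooled mice, 3 a group, and no marks of detection limit all values.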
